A study of Homo sapiens with 3 samples.

Results

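In Cal-33, a human cell line established from a squamous carcinoma of the tongue, knockdown of the repressor BACH1 was compared with a control siRNA across the transcriptome. The genes described were those of the deposited table with at least 5.0 TPM (a transcript abundance scaled to a fixed total per library and already corrected for transcript length) in the siBACH1 or the siControl library. Of 28890 listed genes 10113 met that minimum, and 9933 (34.4%) were kept after 159 pseudogenes and 21 read-through symbols were left out. SLC15A4, at 5.01 TPM, lay just inside the minimum and ENTPD2, at 4.99 TPM, just outside it. Each gene was described by its log2 difference, log2((siBACH1 + 1)/(siControl + 1)) in TPM, after the siBACH1 values were rescaled so that the median gene had a ratio of 1. TPM values are given as deposited, and log2 values and list medians are these rescaled differences, siBACH1 over siControl unless another pair is named.

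All cells carried a wild-type genotype label and were harvested 72 h after transfection, in 3 groups that differed in the siRNA: siBACH1 (against BACH1), sip53 (against p53) and siControl (a control siRNA). With 1 library per siRNA there were no replicates, so no test was run and the values describe these libraries of 1 cell line only. The sip53 library is given beside the other pair as a further library that received a different siRNA, and its comparison shares siControl with the BACH1 comparison. The sources used here give neither the number nor the sequences of the siRNAs.

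BACH1 is a transcriptional repressor that pairs with small MAF proteins and occupies antioxidant response elements, the DNA sites that the activator NRF2 also uses. Heme binds BACH1, which then leaves DNA and is degraded, so that genes for heme breakdown, iron storage and glutathione synthesis are derepressed. In squamous epithelium keratins form the cytoskeleton, with KRT5 and KRT14 typical of basal cells and KRT4 and KRT13 typical of suprabasal cells of the oral mucosa.

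The labelled cell type was checked against markers. The epithelial genes EPCAM (151 TPM in siBACH1, 155 TPM in sip53 and 159 TPM in siControl) and KRT8 (352 TPM in siBACH1, 420.3 TPM in sip53 and 345 TPM in siControl) were present in every library, as were the squamous genes TP63 and KRT5, while KRT19 was low at 2.27 TPM in siBACH1, 2.93 TPM in sip53 and 2.40 TPM in siControl. None of the 8 fibroblast markers was kept, their sum was 4.18 to 5.15 TPM per library and THY1 was at 0 in all 3. Of 6 immune markers only CD68 was kept, with sums of 34.7 to 41.1 TPM per library. In GENCODE release 29, 81.25% of the 31-base words of CD68 transcripts occur in other genes' transcripts, so its own level is uncertain. Of 5 endothelial markers only CDH5 was kept, with sums of 17.9 to 20.3 TPM, and KDR was at 0 in all 3 libraries.

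Most genes differed little. Of the kept genes 7913 (79.7%) had a log2 difference within 0.25 of 0, and the SD across genes was 0.25, against 0.22 for sip53 over siControl. Against siControl, 19 genes (0.191%) reached 2-fold higher in siBACH1, and 22 (0.221%) reached 2-fold lower. Without the rescaling, which shifted all log2 differences by 0.08, the counts were 14 higher and 29 lower. In sip53 5 genes (0.0503%) reached 2-fold higher than siControl and 9 (0.0906%) reached 2-fold lower. The spread depended on level: of the 1808 genes with a mean under 10 TPM the central 95% lay between -0.71 and 0.61, and 13 of the 19 higher genes and 14 of the 22 lower ones were among them. Of the 347 genes with a mean of at least 300 TPM, whose central 95% lay between -0.39 and 0.38, the only 2 past 2-fold were HMOX1 and FTH1. Differences also followed the GC content of the transcript, with a Spearman rank correlation across 9927 genes of -0.27 for siBACH1 over siControl and -0.47 for sip53 over siControl, a description over genes that share the libraries; the part of GC content in the differences was not tested beyond a correction for GC content and length.

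**Figure D1:**
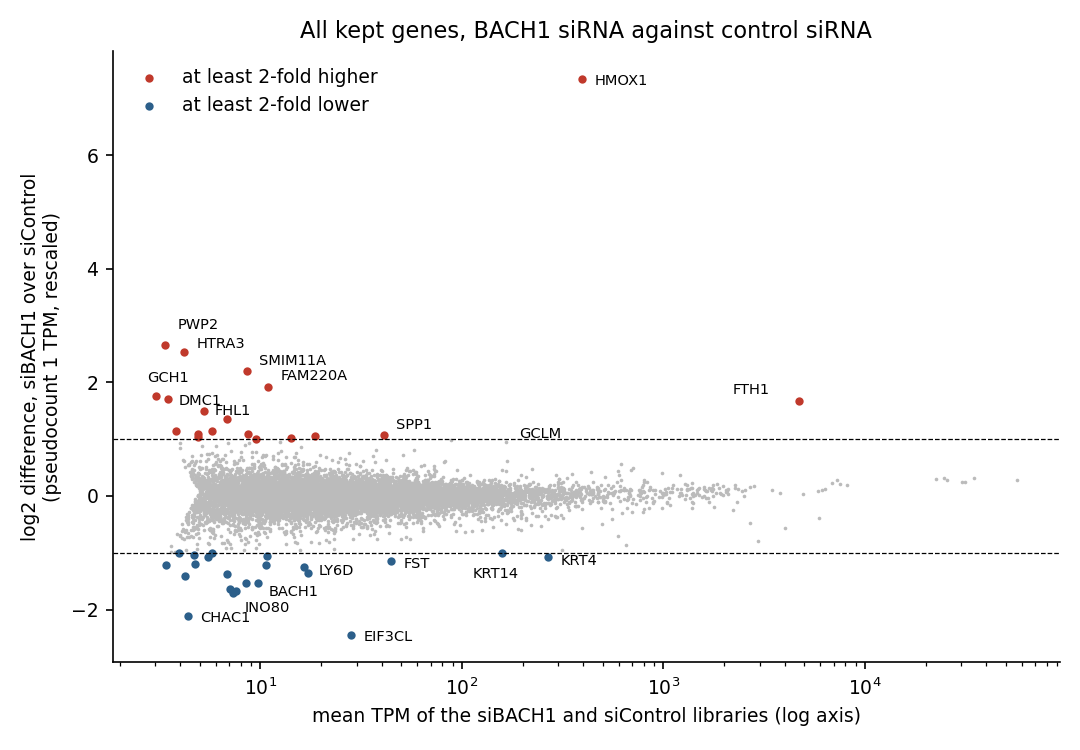
Log2 difference of each of the 9933 kept genes, siBACH1 over siControl (vertical axis), against its mean TPM in these libraries (horizontal log axis). Dashed lines mark 2-fold; HMOX1 lies at 7.35 and FTH1 at 1.68, and most other genes past 2-fold lie at low TPM on the left.

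The BACH1 transcript itself was lower in siBACH1. BACH1 (chr21:29298922-29361894, RefSeq, GRCh38.p14) was at 4.304 TPM in siBACH1, 19.6 TPM in sip53 and 15.2 TPM in siControl, a rescaled log2 difference of -1.54 to siControl and -1.95 to sip53. The siBACH1 library was the lowest of the 3, and the remaining transcript was above the pseudocount of 1.0 TPM. The related repressor BACH2 was under the minimum, at 0.620 TPM in siBACH1, 0.354 TPM in sip53 and 0.954 TPM in siControl.

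The factors that meet BACH1 on DNA or control its stability differed far less. Of the 14 kept members of the list of BACH, NRF and small MAF factors, BACH1 alone was at least 1.5-fold lower (1.46% of all kept genes were) and 0 were at least 1.5-fold higher, with 7 members positive, 7 negative and a median of -0.04. NFE2L2, which encodes NRF2, was at 122 TPM in siBACH1, 151 TPM in sip53 and 143 TPM in siControl (log2 difference -0.14), and KEAP1, the adaptor that sends NRF2 to degradation, at 44.6 TPM in siBACH1, 48.3 TPM in sip53 and 46.3 TPM in siControl (log2 0.03). NFE2L1, a related activator, was at 137 TPM in siBACH1, 182 TPM in sip53 and 169.5 TPM in siControl (log2 -0.22). The small MAF partner MAFK was at 30.9 TPM in siBACH1, 23.5 TPM in sip53 and 27.6 TPM in siControl (log2 0.24), and MAFG (log2 0.02) and MAFF (log2 0.01) were close to 0. FBXL17, an F-box protein of the ligase that degrades BACH1, was at 8.72 TPM in siBACH1, 11.1 TPM in sip53 and 11.7 TPM in siControl (log2 -0.31), and BTRC, an F-box protein that recognises NRF2, at 18.2 TPM in siBACH1, 15.1 TPM in sip53 and 13.9 TPM in siControl (log2 0.44). NFE2L2, KEAP1, MAFG and MAFF were named for their role after their values were seen, as were HMOX2 and BLVRA.

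Genes known or reported to be repressed by BACH1 were mostly higher in siBACH1. Of 21 listed, 20 were kept; SLC40A1, the iron exporter ferroportin, was under the minimum at 0.0236 TPM in siBACH1, 0.245 TPM in sip53 and 0.170 TPM in siControl. Of the 20, 6 were at least 1.5-fold higher, a share to set beside 0.966% of all kept genes, 0 were at least 1.5-fold lower, 16 were positive and 4 negative. Their median log2 difference was 0.32, against 0.00 over all kept genes; their median was 0.02 for sip53 over siControl and 0.37 for siBACH1 over sip53. After correction for GC content and transcript length the siBACH1 median was 0.28 with the same counts. The list was chosen with earlier results of these libraries known, so its direction is no independent evidence.

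The enzyme of heme breakdown stood highest. HMOX1, heme oxygenase 1 (chr22:35381096-35394207), was at 785 TPM in siBACH1, 4.82 TPM in sip53 and 4.099 TPM in siControl. It was far higher in siBACH1 than in either other library, a 192-fold ratio of TPM to siControl and a rescaled log2 difference of 7.35. HMOX2, the constitutive heme oxygenase, did not share this pattern, at 83.4 TPM in siBACH1, 82.6 TPM in sip53 and 96.99 TPM in siControl (log2 -0.13), nor did biliverdin reductase A, BLVRA, which acts on the product of HMOX1, at 108 TPM in siBACH1, 107 TPM in sip53 and 108 TPM in siControl (log2 0.08). Only 1.88% of the 31-base words of HMOX1 transcripts occur in another gene's transcripts in GENCODE release 29.

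Ferritin heavy chain showed the largest gain in TPM of any kept gene outside the mitochondrial genome. FTH1, the ferritin heavy chain (chr11:61964285-61967634), was at 7059.9 TPM in siBACH1, 2785 TPM in sip53 and 2334 TPM in siControl, so that siBACH1 was far above the other 2 libraries (log2 1.68 to siControl, 1.35 to sip53). After rescaling this was a gain of 5149 TPM, followed among those genes by EEF1A1 with 1103 TPM and HMOX1 with 828 TPM. FTL, the ferritin light chain, was at 1335 TPM in siBACH1, 1105 TPM in sip53 and 1228 TPM in siControl, highest in siBACH1 but by only 0.20. FTH1 shares 55.5% of its words with other genes, 44.3% with the neighbouring gene BEST1. Of 18 kept genes of iron storage, uptake and export, 14 were positive with a median of 0.11. FTH1 alone of these passed 1.5-fold, as a higher gene (0.966% of all kept genes were). The transferrin receptor TFRC was at 324 TPM in siBACH1, 285 TPM in sip53 and 279.9 TPM in siControl (log2 0.30), the iron importer SLC11A2 at log2 0.26, the mitochondrial importer SLC25A37 at log2 0.27, and the zinc and iron importer SLC39A14 at log2 -0.28.

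In glutathione synthesis the members of 1 enzyme parted. GCLM, the modifier subunit of glutamate-cysteine ligase (chr1:93885199-93909430), was at 215 TPM in siBACH1, 101 TPM in sip53 and 117 TPM in siControl. siBACH1 was above both other libraries, and the log2 difference to siControl was 0.95. GCLC, the catalytic subunit, was at 324 TPM in siBACH1, 391 TPM in sip53 and 349.8 TPM in siControl (log2 -0.03), close to siControl and lower than sip53. SLC7A11, the cystine carrier, was at 46.8 TPM in siBACH1, 29.03 TPM in sip53 and 39.3 TPM in siControl (log2 0.33), highest in siBACH1 and lowest in sip53.

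An NADPH-producing enzyme was also among the higher members. ME1, the cytosolic malic enzyme (chr6:83210402-83431051), was at 62.5 TPM in siBACH1, 42.3 TPM in sip53 and 39.9 TPM in siControl (log2 0.72). The sip53 and siControl values lay close together, and siBACH1 was above them. FECH, ferrochelatase, which inserts iron into heme, was at 31.5 TPM in siBACH1, 19.99 TPM in sip53 and 20.97 TPM in siControl (log2 0.65). The reductases NQO1 (780.5 TPM in siBACH1, 579 TPM in sip53 and 600.1 TPM in siControl; log2 0.46) and TXNRD1 (389 TPM in siBACH1, 285 TPM in sip53 and 315 TPM in siControl; log2 0.39) and the heme transporter SLC48A1 (45.1 TPM in siBACH1, 36.7 TPM in sip53 and 34.4 TPM in siControl; log2 0.46) were highest in siBACH1 without reaching 1.5-fold.

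The other members lay closer to 0. MITF, a melanocyte and lysosome transcription factor, was at log2 0.30, the reductase AKR1C1 at log2 0.25, the porphyrin transporter ABCB6 at log2 0.15, the lipoprotein receptor LRP8 at log2 0.14, and the autophagy receptor SQSTM1 at log2 0.10. Besides GCLC, the negative members were the lysosomal factor TFE3 (log2 -0.10), the sulfiredoxin SRXN1 at 107 TPM in siBACH1, 115 TPM in sip53 and 126 TPM in siControl (log2 -0.15) and the aldo-keto reductase AKR1B10 at 334 TPM in siBACH1, 446 TPM in sip53 and 399.9 TPM in siControl (log2 -0.18). ABCB6 shares 91.4% and SRXN1 84.9% of its words with a clone-named gene, so their own levels are uncertain.

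**Figure D2:**
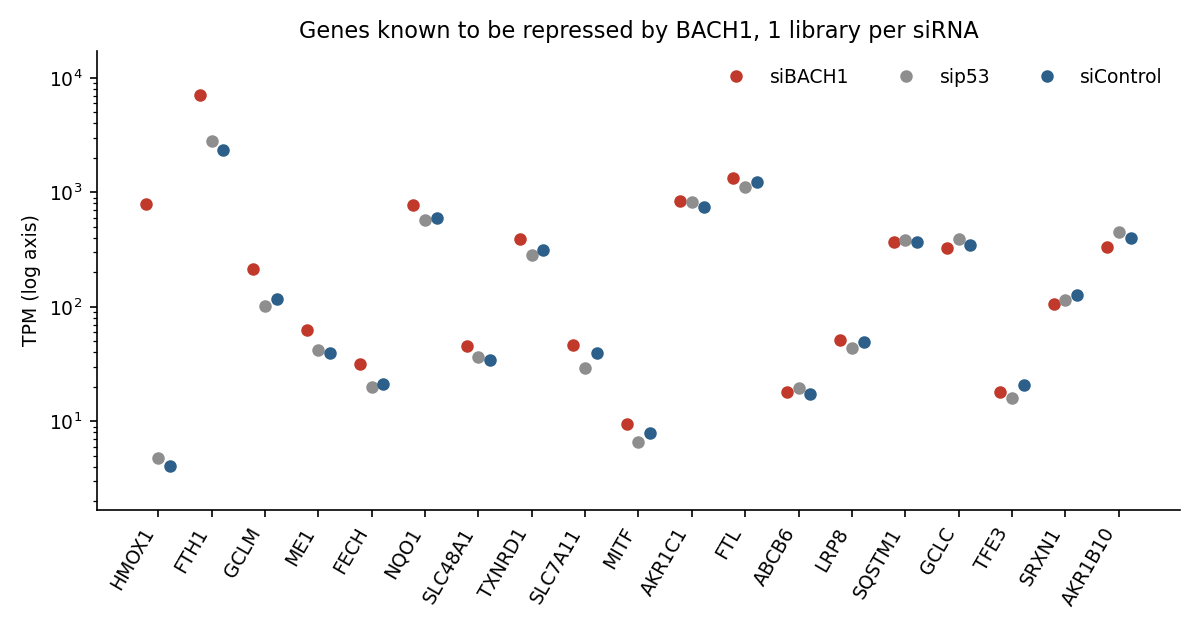
TPM (log axis) of 19 of the 20 kept genes of the BACH1-repressed list in the siBACH1 (red), sip53 (grey) and siControl (blue) libraries, 1 point per library, ordered by log2 difference. siBACH1 lies far above the others for HMOX1 (785 TPM against 4.10 TPM in siControl) and FTH1, by less for GCLM, ME1 and FECH, and among or near them towards the right.

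The 250 bases before the start of each gene's RefSeq promoter entry were searched for the core of the antioxidant response element, spelled TGACNNNGC, on both strands. That start need not be the outermost start of the gene. For SLC48A1 the bases searched, chr12:47772988-47773237, lay within the RefSeq gene span, chr12:47753934-47782751. Of the 20 kept BACH1-repressed genes 15 had such a promoter entry, while HMOX1, FTH1, SLC7A11 and AKR1B10 had none, and 5 of the 15 held a match (33.3%), against 1006 of the 8268 kept genes with an entry (12.2%). Among genes at least 1.5-fold higher in siBACH1 14 of 70 held a match (20%), and among genes at least 1.5-fold lower 5 of 110 (4.55%). The 14 include GCLM, ME1 and FECH of the BACH1-repressed list, so the shares of that list and of the higher genes overlap. The motif bound by AP-1, TGACTCA, occurred in 198 of all 8268 promoters (2.39%), 4 of the 70 higher genes' (5.71%) and 6 of the 110 lower genes' (5.45%). The core of the longer site bound by MAF heterodimers, TGANTCAGC, overlaps both other spellings when N is C. It occurred in 68 of all 8268 promoters (0.822%), 3 of the 70 higher genes' (4.29%) and 1 of the 110 lower genes' (0.909%). A match is a description of the letters and was not tested as a binding site. The 5 promoters with a TGACNNNGC match are shown because they hold the letters searched for, written 5' to 3' on the gene's strand (RefSeq, GRCh38.p14) with the match in capitals. The GCLM promoter is chr1:93909431-93909680 on the minus strand, with the match on the reverse strand at position -34 from the start. The ME1 promoter is chr6:83431052-83431301 on the minus strand, with the match at position -137. The FECH promoter is chr18:57586703-57586952 on the minus strand, with the match on the reverse strand at position -38. The TXNRD1 promoter is chr12:104215529-104215778 on the plus strand, with the match at position -99. The ABCB6 promoter is chr2:219218959-219219208 on the minus strand, with the match at position -152.
GCLM: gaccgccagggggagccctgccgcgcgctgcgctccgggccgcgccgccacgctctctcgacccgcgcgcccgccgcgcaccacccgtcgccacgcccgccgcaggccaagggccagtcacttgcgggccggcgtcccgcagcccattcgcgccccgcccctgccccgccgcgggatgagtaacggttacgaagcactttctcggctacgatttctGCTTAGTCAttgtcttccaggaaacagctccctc
ME1: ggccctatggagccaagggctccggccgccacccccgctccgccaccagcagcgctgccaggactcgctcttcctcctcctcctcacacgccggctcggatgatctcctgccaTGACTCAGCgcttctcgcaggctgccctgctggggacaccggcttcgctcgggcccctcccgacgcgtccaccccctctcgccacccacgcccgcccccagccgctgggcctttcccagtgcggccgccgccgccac
FECH: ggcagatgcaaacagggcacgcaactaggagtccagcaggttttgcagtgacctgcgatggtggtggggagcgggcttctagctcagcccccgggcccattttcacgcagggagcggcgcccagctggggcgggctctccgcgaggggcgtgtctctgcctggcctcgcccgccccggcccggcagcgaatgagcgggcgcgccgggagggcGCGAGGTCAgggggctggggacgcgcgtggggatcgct
TXNRD1: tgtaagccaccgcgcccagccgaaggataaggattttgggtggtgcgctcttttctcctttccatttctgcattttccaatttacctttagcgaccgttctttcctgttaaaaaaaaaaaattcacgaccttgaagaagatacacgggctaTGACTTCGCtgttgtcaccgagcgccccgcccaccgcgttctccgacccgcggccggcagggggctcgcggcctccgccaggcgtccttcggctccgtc
ABCB6: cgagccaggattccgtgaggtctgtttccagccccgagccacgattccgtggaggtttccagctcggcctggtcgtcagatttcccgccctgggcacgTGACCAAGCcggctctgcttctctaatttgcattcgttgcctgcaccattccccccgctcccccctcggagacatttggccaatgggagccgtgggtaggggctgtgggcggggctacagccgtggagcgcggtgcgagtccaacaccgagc
The match of ME1, TGACTCAGC, also holds the TGACTCA and TGANTCAGC spellings. The log2 differences of these genes were 0.95 for GCLM, 0.72 for ME1, 0.65 for FECH, 0.39 for TXNRD1 and 0.15 for ABCB6.

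Outside that list, neighbouring steps of heme, NADPH and carbonyl metabolism held a few further genes past 1.5-fold. ALAS1, the rate-limiting enzyme of heme synthesis, was at 43.96 TPM in siBACH1, 27.8 TPM in sip53 and 28.4 TPM in siControl (log2 0.70), and siBACH1 was the highest library. Of 13 kept heme synthesis genes ALAS1 and FECH were the 2 past 1.5-fold, both higher (0.966% of all kept genes were). The median of the 13 was 0.04. PPOX, protoporphyrinogen oxidase, was at 5.13 TPM in siBACH1, 8.42 TPM in sip53 and 7.94 TPM in siControl (log2 -0.47). ABCG2, an exporter of porphyrins and drugs, was at 9.06 TPM in siBACH1, 6.61 TPM in sip53 and 5.16 TPM in siControl (log2 0.78). The 14 kept genes of heme degradation and transport had a median of -0.12. HMOX1 and ABCG2 stood apart from members such as the heme exporter FLVCR1 (log2 -0.24) and the heme and folate carrier SLC46A1 (log2 -0.25). SLC46A1 shares 62.5% of its words with other genes.

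Among 15 kept aldo-keto, carbonyl and quinone reductases 2 were at least 1.5-fold higher, against 0.966% of all kept genes, and 0 lower, against 1.46%, with a median of 0.00. AKR1B1, aldose reductase (chr7:134442350-134459239), was at 115 TPM in siBACH1, 47.4 TPM in sip53 and 61.3 TPM in siControl. It was the highest in siBACH1 and the lowest in sip53, with a log2 difference of 0.98 to siControl. NQO2, a quinone reductase, was at 38.4 TPM in siBACH1, 21.6 TPM in sip53 and 26.4 TPM in siControl (log2 0.61). The aldo-keto reductases AKR1C3 (log2 0.42) and AKR1C2 (log2 0.37), which shares 53.4% of its words with AKR1C1, were higher by less, and CBR1, a carbonyl reductase, was at 147 TPM in siBACH1, 162 TPM in sip53 and 191 TPM in siControl (log2 -0.29). Of 18 kept NADPH and pentose phosphate genes 2 passed 1.5-fold, ME1 among them, TKT, transketolase, was at 1093 TPM in siBACH1, 778 TPM in sip53 and 875 TPM in siControl (log2 0.41) and the median was 0.08.

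Glutathione use and lipid peroxidation genes were mixed. CHAC1, an enzyme that cleaves glutathione (chr15:40953471-40956512), was at 0.975 TPM in siBACH1, 7.76 TPM in sip53 and 7.77 TPM in siControl, so that siBACH1 was under 1 TPM while the other libraries were alike (log2 -2.11). OPLAH, which recycles oxoproline, was at log2 -0.50, and GGCT, which makes oxoproline from glutathione fragments, at log2 0.37. Of 18 kept ferroptosis and lipid peroxidation genes (median 0.05) CHAC1 alone passed 1.5-fold, as a lower gene (1.46% of all kept genes were). The desaturases FADS2 (15.7 TPM in siBACH1, 8.22 TPM in sip53 and 11.5 TPM in siControl, log2 0.51) and FADS1 (log2 0.44) were positive. GPX4, the lipid peroxide reductase, was at log2 -0.03, a member named after its value was seen. The 23 thioredoxin and peroxiredoxin genes (median 0.04) and the 5 superoxide dismutase and catalase genes (median 0.03) had 0 members past 1.5-fold. Among 13 glutathione peroxidases and transferases the transferase GSTT1 was lower (2.004 TPM in siBACH1, 3.25 TPM in sip53 and 5.22 TPM in siControl; log2 -0.99) and the peroxidase GPX2 was at 253 TPM in siBACH1, 216 TPM in sip53 and 193 TPM in siControl (log2 0.47).

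GCH1, the first enzyme of tetrahydrobiopterin synthesis, was at 5.15 TPM in siBACH1, 4.22 TPM in sip53 and 0.913 TPM in siControl (log2 1.76). Both knockdown libraries were above siControl, and siBACH1 was only 0.24 above sip53 on the log2 scale. The other 6 kept members of the pathway lay between -0.14 and 0.24.

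**Figure D3:**
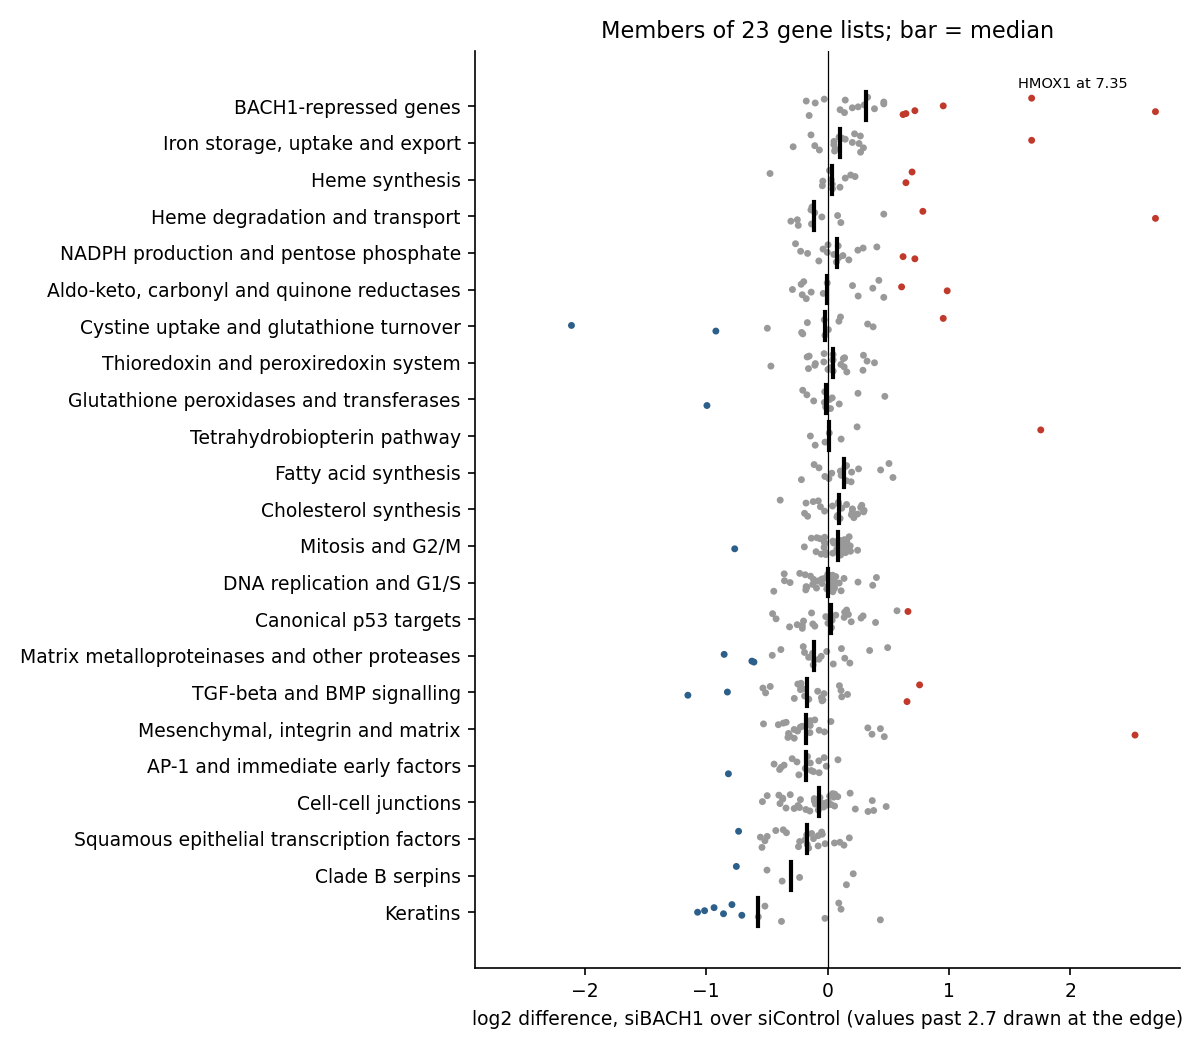
Log2 difference, siBACH1 over siControl, of the kept members of 23 gene lists (1 point per gene; red and blue points are at least 1.5-fold higher or lower, bars are list medians). The BACH1-repressed list has the rightmost median (0.32) among the lists drawn and the keratins the leftmost (-0.57). HMOX1, a member of 2 of the lists, is drawn at the right edge.

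The remaining genes at least 2-fold higher in siBACH1 were mostly weakly expressed. HTRA3, a secreted serine protease, was at 7.77 TPM in siBACH1, 0.312 TPM in sip53 and 0.597 TPM in siControl (log2 2.53), and PWP2, a factor of small ribosomal subunit assembly, at 6.45 TPM in siBACH1, 2.16 TPM in sip53 and 0.248 TPM in siControl (log2 2.65). In both, siControl was under 1 TPM. PWP2 shares 92.5% of its words with a clone-named gene that is not listed, so its own level is uncertain. FAM220A was at 17.7 TPM in siBACH1, 4.81 TPM in sip53 and 4.18 TPM in siControl (log2 1.93), the meiotic recombinase DMC1 at 5.78 TPM in siBACH1, 0.978 TPM in sip53 and 1.17 TPM in siControl (log2 1.71) and the LIM-domain protein FHL1 at 8.08 TPM in siBACH1, 2.52 TPM in sip53 and 2.396 TPM in siControl (log2 1.49). In these 3 genes sip53 and siControl were close and siBACH1 was above both.

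Secreted and oxygen-binding products were among them at higher levels. SPP1, the secreted phosphoprotein osteopontin, was at 54.8 TPM in siBACH1, 32.2 TPM in sip53 and 27.004 TPM in siControl (log2 1.08), and MB, the heme protein myoglobin, at 25.1 TPM in siBACH1, 14.6 TPM in sip53 and 12.3 TPM in siControl (log2 1.06). C15orf48, a small mitochondrial protein, was at 12.02 TPM in siBACH1, 4.65 TPM in sip53 and 5.43 TPM in siControl (log2 1.10). S100P, a calcium-binding protein, was at 10.1 TPM in siBACH1, 8.41 TPM in sip53 and 3.55 TPM in siControl (log2 1.36), where both knockdown libraries were above siControl and siBACH1 was 0.24 above sip53. The rest were SH3BP1, a GTPase-activating protein that shares 59.1% of its words with a gene that is not listed (log2 1.02), the glycosyltransferase MGAT4A (log2 1.14), the phosphatase PPEF2 (log2 1.14), and SMIM22 (log2 1.10), CLDND2 (log2 1.03) and ERVMER34-1 (log2 1.01).

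Keratins of stratified epithelium were lower in siBACH1. Of 33 listed keratins 13 were kept; 6 were at least 1.5-fold lower (1.46% of all kept genes were), 0 higher (0.966% of all), 10 were negative and 3 positive, and the median was -0.57, against 0.06 for sip53 over siControl and -0.59 for siBACH1 over sip53. All 33 listed keratins together summed to 12005 TPM in siBACH1, 17698 TPM in sip53 and 18465 TPM in siControl. After correction for GC content and length the median was -0.53 with 6 members at least 1.5-fold lower. In bulk RNA, fewer cells of a type and less RNA per cell cannot be told apart.

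The suprabasal keratins KRT4 and KRT13 are typical of oral mucosa. KRT4 (chr12:52806549-52814116) was at 166 TPM in siBACH1, 389 TPM in sip53 and 369.7 TPM in siControl (log2 -1.07), and KRT13 (chr17:41500981-41505612) at 2087 TPM in siBACH1, 3679 TPM in sip53 and 3821 TPM in siControl (log2 -0.79). For each, the sip53 and siControl values were close and siBACH1 was clearly below. KRT13, KRT5 and KRT15 had the most negative TPM differences of the kept genes after rescaling, at -1608 TPM for KRT13, -1596 TPM for KRT5 and -1579 TPM for KRT15.

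The keratins of basal and activated cells had the same direction. KRT14 (chr17:41582279-41586895) was at 100.1 TPM in siBACH1, 166 TPM in sip53 and 215 TPM in siControl (log2 -1.01) and its partner KRT5 at 3101 TPM in siBACH1, 4375 TPM in sip53 and 4883 TPM in siControl (log2 -0.57). For KRT14 sip53 lay between siBACH1 and siControl (log2 -0.72 for siBACH1 over sip53). KRT6A, induced in wounded epithelium, was at 447 TPM in siBACH1, 806 TPM in sip53 and 858 TPM in siControl (log2 -0.86), its partner KRT16 at 14.9 TPM in siBACH1, 30.8 TPM in sip53 and 31.2 TPM in siControl (log2 -0.94) and KRT17 at 438 TPM in siBACH1, 768 TPM in sip53 and 758 TPM in siControl (log2 -0.71). KRT15, the most abundant keratin, was at 4947 TPM in siBACH1, 6716 TPM in sip53 and 6823 TPM in siControl (log2 -0.38), and KRT10, of cornifying epidermis, at 27.97 TPM in siBACH1, 42.7 TPM in sip53 and 42.8 TPM in siControl (log2 -0.52). KRT6A shares 52.7% and KRT14 46.1% of its words with other genes. KRT6C, which holds 45.7% of the KRT6A words, was under the minimum at 0.3802 TPM in siBACH1, 0.866 TPM in sip53 and 0.837 TPM in siControl. Its relative KRT6B was also under the minimum, at 2.35 TPM in siBACH1, 4.48 TPM in sip53 and 4.64 TPM in siControl.

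Keratins of simple epithelium did not share the difference. KRT8 (log2 0.11) and its partner KRT18, at 253 TPM in siBACH1, 231 TPM in sip53 and 252 TPM in siControl (log2 0.09), and KRT7 (log2 -0.02) were near 0. KRT80, not assigned to simple or stratified epithelium here, was the most positive kept keratin. It was at 36.3 TPM in siBACH1, 35.1 TPM in sip53 and 28.2 TPM in siControl (log2 0.43). KRT7, KRT10, KRT15 and KRT80 were named after their values were seen.

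**Figure D4:**
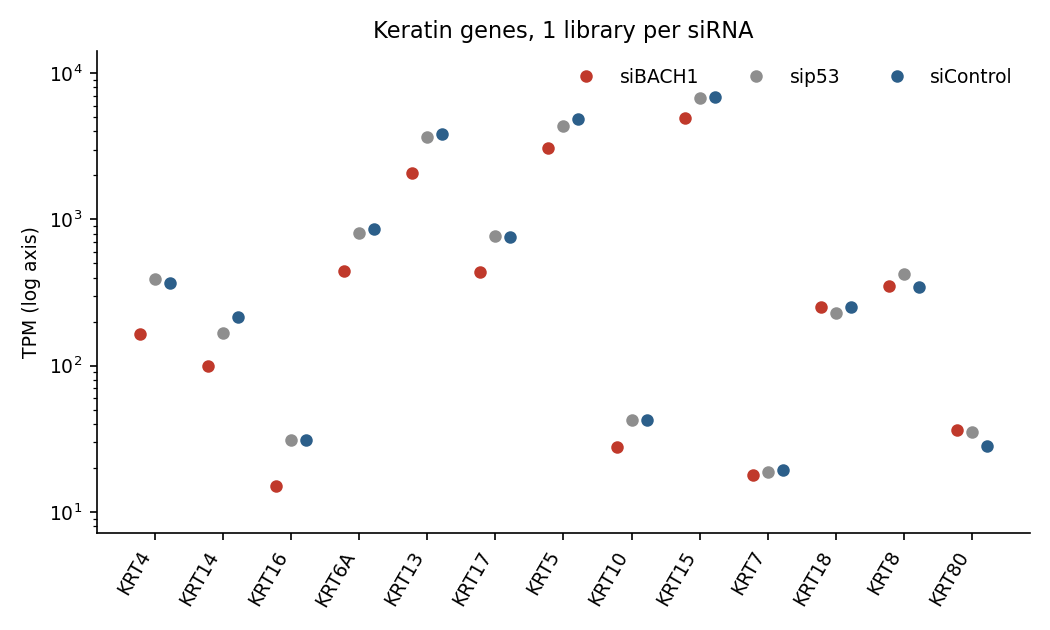
TPM (log axis) of the 13 kept keratins in the siBACH1 (red), sip53 (grey) and siControl (blue) libraries, 1 point per library, ordered by log2 difference. siBACH1 is the lowest library for KRT4 through KRT15, as for KRT13 (2087 TPM against 3821 TPM in siControl), and lies near the others for KRT7, KRT18 and KRT8.

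Transcription factors of squamous epithelium had mostly small negative differences. Of 26 kept, 22 were negative and 4 positive, and the median was -0.17 (-0.04 for sip53 over siControl). Of the 26, 1 was at least 1.5-fold lower (1.46% of all kept genes were) and 0 higher (0.966% of all). ZNF750, a differentiation factor, was at 2.71 TPM in siBACH1, 4.24 TPM in sip53 and 5.44 TPM in siControl (log2 -0.73). GRHL2, an activator of epithelial junction genes, was at 24.95 TPM in siBACH1, 34.6 TPM in sip53 and 38.9 TPM in siControl (log2 -0.54), PITX1 at 77.6 TPM in siBACH1, 101 TPM in sip53 and 118 TPM in siControl (log2 -0.52), and TP63, the master factor of stratified epithelium, at 172 TPM in siBACH1, 209.7 TPM in sip53 and 246 TPM in siControl (log2 -0.43). All 3 were lowest in siBACH1, with sip53 between. KLF4, of the differentiating layers, was at 13.9 TPM in siBACH1, 19.1 TPM in sip53 and 21.2 TPM in siControl (log2 -0.50) and BARX2 at log2 -0.55.

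Other products of stratified epithelium were uneven. Of 6 kept clade B serpins, protease inhibitors of squamous cells, the median was -0.30, with SERPINB13 at 41.3 TPM in siBACH1, 71.4 TPM in sip53 and 62.3 TPM in siControl (log2 -0.50) and SERPINB3 at 2.74 TPM in siBACH1, 9.54 TPM in sip53 and 5.58 TPM in siControl (log2 -0.75). For SERPINB3, which shares 63.6% of its words with other genes, sip53 was above siControl and siBACH1 below it. Cornified envelope and desquamation genes did not share the direction: of 26 kept 14 were positive and 12 negative, with a median of 0.03. Of the 26, 2 were at least 1.5-fold lower, against 1.46% of all kept genes. The lower pair were DAPL1 (5.45 TPM in siBACH1, 18.97 TPM in sip53 and 11.3 TPM in siControl; log2 -0.85) and the envelope precursor SPRR1B (10.5 TPM in siBACH1, 12.9 TPM in sip53 and 19.02 TPM in siControl; log2 -0.73), while the kallikrein proteases KLK6 (log2 0.50) and KLK7 (log2 0.44) were positive. Of 16 S100 genes S100A3 was at 5.59 TPM in siBACH1, 6.29 TPM in sip53 and 10.3 TPM in siControl (log2 -0.70), S100A8 at log2 -0.33 and S100A2, an abundant member, at 1965 TPM in siBACH1, 2127 TPM in sip53 and 2483 TPM in siControl (log2 -0.25).

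Adhesion genes were mixed. Of 22 kept hemidesmosome, laminin and basement membrane genes 17 were negative and 5 positive with a median of -0.08. After correction for GC content and length 13 were negative and 9 positive, the median was -0.01 and 0 members were 1.5-fold lower. COL17A1, the transmembrane collagen of hemidesmosomes, was at 17.6 TPM in siBACH1, 39.8 TPM in sip53 and 29.1 TPM in siControl (log2 -0.61) without that correction. The cytolinker PLEC was at 42.8 TPM in siBACH1, 56.1 TPM in sip53 and 63.3 TPM in siControl (log2 -0.47). Of 38 cell-cell junction genes 0 passed 1.5-fold, 24 were negative and 14 positive (median -0.07), with the connexin GJA1 at 30.8 TPM in siBACH1, 49.8 TPM in sip53 and 47.8 TPM in siControl (log2 -0.54), the plakophilin PKP1 at log2 -0.50 and the desmosomal cadherins DSC3 at log2 -0.40 and DSG3 at log2 -0.37, while the claudins CLDN7 (log2 0.48) and CLDN4 (log2 0.38) were positive.

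The other genes at least 2-fold lower had varied functions. LY6D, a surface protein of keratinocytes, was at 8.85 TPM in siBACH1, 14.4 TPM in sip53 and 25.6 TPM in siControl (log2 -1.36), and FST, the activin-binding protein follistatin (chr5:53480629-53487134), at 26.2 TPM in siBACH1, 56.95 TPM in sip53 and 62.9 TPM in siControl (log2 -1.15). FST was alike in sip53 and siControl, whereas LY6D in sip53 lay between. HES4, a Notch-responsive repressor, was at 5.76 TPM in siBACH1, 10.5 TPM in sip53 and 15.6 TPM in siControl (log2 -1.22), CALB1, the calcium buffer calbindin, at 6.37 TPM in siBACH1, 11.7 TPM in sip53 and 15.2 TPM in siControl (log2 -1.06) and CXCL14, an epithelial chemokine, at 2.39 TPM in siBACH1, 5.401 TPM in sip53 and 7.08 TPM in siControl (log2 -1.19). In these 3, sip53 lay between siBACH1 and siControl.

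Several intracellular regulators were also at least 2-fold lower. INO80, the ATPase of a chromatin remodelling complex, was at 2.98 TPM in siBACH1, 8.55 TPM in sip53 and 12.2 TPM in siControl (log2 -1.67), the cullin adaptor BTBD6 at 2.81 TPM in siBACH1, 8.97 TPM in sip53 and 11.4 TPM in siControl (log2 -1.64) and the ubiquitin ligase UBR3 at 3.22 TPM in siBACH1, 9.67 TPM in sip53 and 10.5 TPM in siControl (log2 -1.38). All 3 were clearly lowest in siBACH1, with the other libraries between 8.55 and 12.2 TPM. Of the 15 kept members of the INO80 complex INO80 alone passed 1.5-fold, as a lower gene (1.46% of all kept genes were). INO80B, which shares 80.2% of its words with a read-through gene, was at 11.7 TPM in siBACH1, 9.34 TPM in sip53 and 16.6 TPM in siControl (log2 -0.40). Matches of the siRNA to these transcripts were not examined. The rest were SYCE1L (log2 -1.53), the calcium channel-like TMEM37 (log2 -1.41), TMEM238 (log2 -1.22), the semaphorin receptor PLXNA3 (log2 -1.07), the adhesion molecule ICAM5 (log2 -1.03), the estrogen sulfotransferase SULT1E1 (log2 -1.01) and the F-box protein FBXO16 (log2 -1.004), the last pair named after their values were seen; ICAM5 in sip53 was at 3.12 TPM, closer to siBACH1 at 2.63 TPM than to siControl at 6.73 TPM.

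Signalling and invasion-linked lists were compared in the same way. Of 20 kept genes in the list of matrix metalloproteinases and other proteases 3 were at least 1.5-fold lower, against 1.46% of all kept genes. None was higher, against 0.966% (median -0.11), and after the GC and length correction 2 were lower and 1 higher. The list leaves out the serine protease HTRA3 (log2 2.53), which was counted with the mesenchymal, integrin and matrix genes. The 3 lower ones were the stromelysin MMP10 at 8.91 TPM in siBACH1, 24.1 TPM in sip53 and 17.9 TPM in siControl (log2 -0.85), the gelatinase MMP2 at 10.5 TPM in siBACH1, 15.8 TPM in sip53 and 17.8 TPM in siControl (log2 -0.62) and the lysosomal cathepsin CTSB at 149.6 TPM in siBACH1, 214 TPM in sip53 and 242 TPM in siControl (log2 -0.61). CTSD, another lysosomal protease, was higher in siBACH1, at 809.6 TPM in siBACH1, 609 TPM in sip53 and 609 TPM in siControl (log2 0.49). CTSD shares 57.3% of its words with other genes. Of 24 TGF-beta and BMP genes 18 were negative (median -0.17). Besides FST, LTBP3, which tethers latent TGF-beta, was at 13.3 TPM in siBACH1, 23.5 TPM in sip53 and 25.8 TPM in siControl (log2 -0.83), while SMAD4, the shared signal transducer, was at 6.78 TPM in siBACH1, 6.92 TPM in sip53 and 4.205 TPM in siControl (log2 0.65), where sip53 was as high as siBACH1.

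AP-1 and immediate early factors were negative in 17 of 18 kept members, with a median of -0.17 (0.08 for sip53 over siControl, -0.15 in siBACH1 after the GC and length correction). Of the 18, 1 was at least 1.5-fold lower (1.46% of all kept genes were) and 0 higher (0.966% of all). JUND was at log2 -0.44, FOS at log2 -0.40, JUNB at log2 -0.38 and EGR1 at log2 -0.36. In the EGFR list (22 kept, median -0.06) the receptor EGFR was at 102 TPM in siBACH1, 144 TPM in sip53 and 147 TPM in siControl (log2 -0.44), its ligand AREG at 26.2 TPM in siBACH1, 45.1 TPM in sip53 and 41.2 TPM in siControl (log2 -0.55) and the feedback phosphatase DUSP6 at 11.01 TPM in siBACH1, 12.98 TPM in sip53 and 18.01 TPM in siControl (log2 -0.59), while the ligand BTC was at log2 0.54. Of 24 mesenchymal, integrin and matrix genes 18 were negative (median -0.18); HTRA3 alone passed 1.5-fold, PDPN, podoplanin, was at log2 -0.53 and LGALS1, galectin-1, at 669 TPM in siBACH1, 435 TPM in sip53 and 524 TPM in siControl (log2 0.43). Of 24 YAP and TEAD targets 0 passed 1.5-fold (median -0.09).

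Of 23 kept drug efflux and conjugation genes 2 were at least 1.5-fold higher (0.966% of all kept genes were) and 2 lower (1.46% of all). Their median was 0.02. ALDH3A1, an aldehyde dehydrogenase abundant in squamous epithelium, was at 206 TPM in siBACH1, 386 TPM in sip53 and 422 TPM in siControl (log2 -0.95), far lower in siBACH1 than in both others. ALDH1A1 was at 72.2 TPM in siBACH1, 76.4 TPM in sip53 and 43.3 TPM in siControl (log2 0.81), where sip53 was as high as siBACH1. The carboxylesterase CES1 was at 2.91 TPM in siBACH1, 8.45 TPM in sip53 and 5.27 TPM in siControl (log2 -0.62). Fatty acid synthesis genes were positive in 14 of 18 members without any past 1.5-fold (median 0.13), led by the elongase ELOVL6 at 75.5 TPM in siBACH1, 53.8 TPM in sip53 and 54.8 TPM in siControl (log2 0.54).

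Cell cycle lists showed little difference. None of 41 DNA replication and G1/S genes passed 1.5-fold in siBACH1 (median 0.00, against -0.31 for sip53 over siControl). Of 39 mitosis and G2/M genes (median 0.08) 1 was at least 1.5-fold lower, against 1.46% of all kept genes. That gene was CCNA2, cyclin A2, at 39.4 TPM in siBACH1, 76.9 TPM in sip53 and 71.7 TPM in siControl (log2 -0.77). Of 26 canonical p53 targets (median 0.03) 1 was at least 1.5-fold higher, against 0.966% of all kept genes. It was the death receptor FAS, at 30.1 TPM in siBACH1, 19.7 TPM in sip53 and 19.8 TPM in siControl (log2 0.66). After the GC and length correction 2 of these targets were past 1.5-fold.

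Stress chaperones and kinases included a few lower genes. The small heat shock proteins CRYAB (10.2 TPM in siBACH1, 18.3 TPM in sip53 and 20.1 TPM in siControl; log2 -0.83) and HSPB1 (2167 TPM in siBACH1, 3010.4 TPM in sip53 and 3202 TPM in siControl; log2 -0.48) were lowest in siBACH1, although the 25 heat shock genes had a median of 0.07. EIF2AK3, the ER stress kinase PERK, was at 5.15 TPM in siBACH1, 8.53 TPM in sip53 and 11.4 TPM in siControl (log2 -0.94). Of 28 ATF4 and amino acid stress genes CHAC1 alone passed 1.5-fold, as a lower gene (1.46% of all kept genes were). Their median was -0.08. The cationic amino acid carrier SLC7A1 was at 41.1 TPM in siBACH1, 61.01 TPM in sip53 and 63.9 TPM in siControl (log2 -0.54). The pseudokinase TRIB3 was at 76.5 TPM in siBACH1, 55.3 TPM in sip53 and 62.6 TPM in siControl (log2 0.37).

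The mitochondrially encoded genes took 28.2% of TPM in siBACH1, 29.2% in sip53 and 24.8% in siControl, and all 13 were positive in siBACH1 with a median of 0.28 (0.31 for sip53 over siControl). With TPM recomputed without these and the ribosomal protein genes, which raised the kept genes to 10589, 31 genes were at least 2-fold higher and 41 lower. Of 82 cytosolic ribosomal protein genes 67 were positive, with a median of 0.08 against -0.13 for sip53 over siControl.

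Some genes past a threshold have near-identical listed copies. Of the kept genes 213 share at least 50% of their 31-base words with another listed gene; 3 of these passed 2-fold, and 0 did once each gene was summed with its copies. EIF3CL, a copy of the initiation factor subunit EIF3C, was the lowest of all kept genes relative to siControl, at 7.72 TPM in siBACH1, 31.3 TPM in sip53 and 48.9 TPM in siControl (log2 -2.44). The sum of EIF3CL and EIF3C was 231 TPM in siBACH1, 222 TPM in sip53 and 254 TPM in siControl (log2 -0.05). SMIM11A was at 14.6 TPM in siBACH1, 7.83 TPM in sip53 and 2.57 TPM in siControl (log2 2.205) and its copy SMIM11B at 8.97 TPM in siBACH1, 17.5 TPM in sip53 and 24.04 TPM in siControl (log2 -1.25), and their sum was 23.5 TPM in siBACH1, 25.3 TPM in sip53 and 26.6 TPM in siControl (log2 -0.09). At 1.5-fold, 11 such genes passed alone and 2 when summed. CBS, cystathionine beta-synthase, was at 6.02 TPM in siBACH1, 11.6 TPM in sip53 and 12.97 TPM in siControl (log2 -0.92), but its sum with the copy CBSL was 16.3 TPM in siBACH1, 20.1 TPM in sip53 and 23.7 TPM in siControl (log2 -0.44). The sulfotransferase SULT1A4 and its copy SULT1A3 summed to 43.8 TPM in siBACH1, 43.1 TPM in sip53 and 48.03 TPM in siControl (log2 -0.05), and the splicing factor U2AF1 and its copy U2AF1L5 to 181 TPM in siBACH1, 184 TPM in sip53 and 193 TPM in siControl (log2 -0.01), both pairs chosen after their values were seen.

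**Figure D5:**
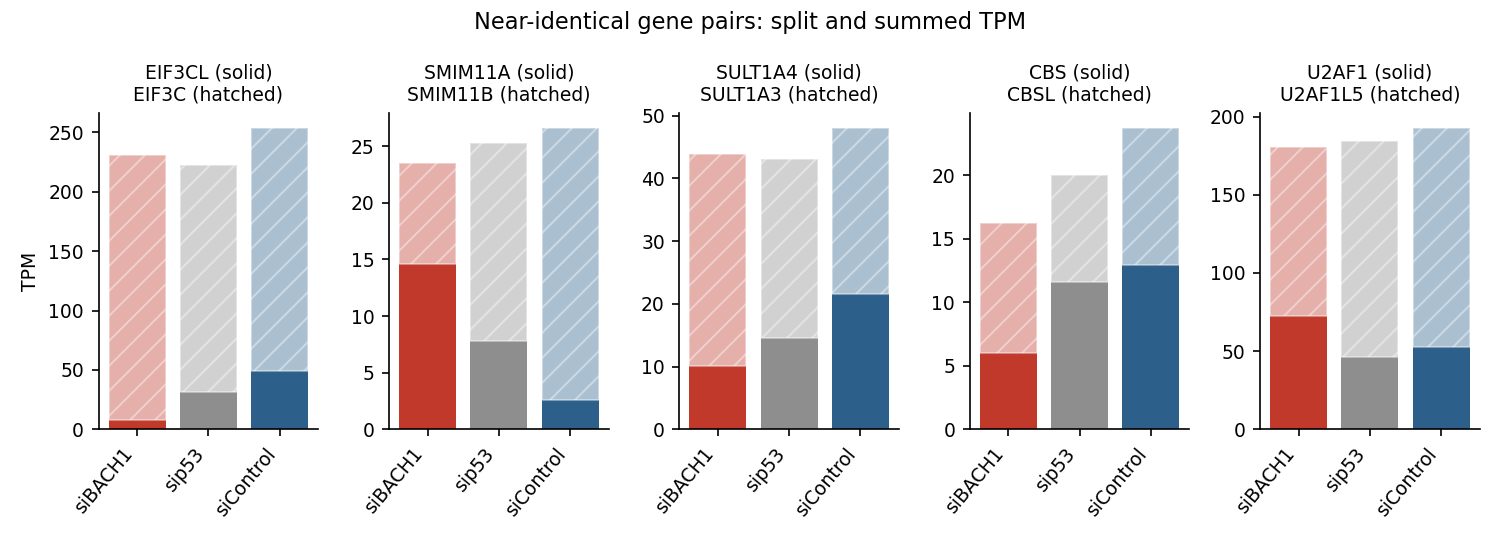
TPM of 5 near-identical gene pairs in the siBACH1, sip53 and siControl libraries (bars from left to right in each panel; solid part, the named gene; hatched part, its copy). The split between the copies differs between libraries while the stacked sum is similar, as for EIF3CL with EIF3C (231 TPM in siBACH1, 254 TPM in siControl); the sum of CBS and CBSL is lower in siBACH1.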

How the data were processed

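RNA sequencing measured 3 Cal-33 libraries, each from a different siRNA transfection, 72 h after transfection. The authors deposited TPM for 28890 genes in 1 table. Per the submitters' processing notes, bcl2fastq 2.20 and kallisto 0.44.0 were used, and GRCh38, GRCm38 and mm10 are named without a role. The transcript annotation and the summing to genes were not given in the sources used here. TPM keeps no depth, so the depth of each library is unknown and no counting interval is given. Listed TPM summed to between 978371 and 979148 per library.

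From the deposited TPM, log2 differences were computed with a pseudocount of 1.0 TPM after rescaling to a median ratio of 1 (ratio 0.943 before rescaling for siBACH1). The pseudocount understates differences of weakly expressed genes. With 1 library per group no test was run, and differences past 2-fold, or 1.5-fold for gene lists, were counted. Biotypes came from the RefSeq gene table, in which 28816 symbols matched. GC content, length and shared 31-base words came from GENCODE release 29 transcripts, and promoters from RefSeq. The members and the 61 gene lists were chosen with earlier results of these data known. Named genes were BACH1, the 20 protein-coding genes with the most positive and the 20 with the most negative difference, up to 6 members of each list with the largest absolute difference, all kept BACH1-repressed genes, and genes marked as named after their values were seen; some of these are not reported here. The calculation was tested on simulated data. Alternatives were other pseudocounts, minimums, scalings, thresholds and the sip53 library in place of siControl. Python 3.11.15, numpy 2.4.6 and pandas 2.3.3 were used.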

Additional observations from a re-analysis of the deposited data

How the results depend on the processing

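The counts of genes at least 2-fold higher and lower, 19 and 22 as reported, stayed within 1.5 times of these values with a pseudocount of 0.1 TPM (26 and 33), TPM as deposited (14 and 29), a trimmed-mean scaling (19 and 22), protein-coding genes (19 and 22), a GC content and length correction (20 and 17) and sip53 in place of siControl (25 and 33). They moved further with a pseudocount of 5 TPM (6 and 11), a minimum of 1 TPM (60 and 45), a minimum of 20 TPM (4 and 6), mitochondrially encoded and ribosomal protein genes left out (31 and 41), a 1.5-fold threshold (96 and 145) and a 3-fold threshold (8 and 5). The BACH1 log2 difference, -1.54 as reported, was -1.71 with a pseudocount of 0.1 TPM, -1.08 with 5 TPM and -1.95 against sip53. The HMOX1 log2 difference, 7.35 as reported, was 7.63 with a pseudocount of 0.1 TPM, 6.52 with 5 TPM, 7.46 without the mitochondrially encoded and ribosomal protein genes and 7.09 against sip53. Among named genes at least 1.5-fold higher or lower, the ALDH1A1 log2 difference (-0.0715) and the SMAD4 log2 difference (-0.0159) had the opposite sign against sip53. The cause was not tested. No paired analysis was possible because there was 1 library per group. Leaving out a library was not possible for the same reason. Unknown depth limits all values under about 10 TPM most, where the spread across genes was widest.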

Other observations

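Further lists had little difference in siBACH1. None of the 39 proteasome genes (median 0.07), 77 mitochondrial ribosomal protein genes (0.01), 45 nuclear-encoded respiratory chain genes (-0.03), 22 glycolysis genes (0.03), 26 cholesterol synthesis genes (0.10) or 23 aminoacyl-tRNA synthetase genes (0.10) was at least 1.5-fold higher or lower. None of 19 hypoxia response genes passed 1.5-fold either, with 17 negative and a median of -0.12, led by the demethylase KDM4B (log2 -0.50), the carbonic anhydrase CA12 (log2 -0.46) and the vasoactive peptide ADM (log2 -0.36). Metallothioneins, zinc-binding proteins, were slightly lower in TPM, with MT2A at 496 TPM in siBACH1, 507 TPM in sip53 and 614 TPM in siControl (log2 -0.22) and MT1X at 171 TPM in siBACH1, 198 TPM in sip53 and 219.99 TPM in siControl (log2 -0.28).

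Immune-response lists also held few differences. Of 34 kept interferon-stimulated genes (median 0.02) the exonuclease ISG20 was the only one past 1.5-fold, as a higher gene (0.966% of all kept genes were). ISG20 was at 9.94 TPM in siBACH1, 6.55 TPM in sip53 and 6.13 TPM in siControl (log2 0.69). Of 18 inflammatory cytokine and NF-kappaB genes 0 passed 1.5-fold (median 0.06), with the chemokine CXCL1 at 6.44 TPM in siBACH1, 6.67 TPM in sip53 and 4.71 TPM in siControl (log2 0.45). Of 49 lysosome and autophagy genes (median 0.03) CTSB alone passed 1.5-fold, as a lower gene (1.46% of all kept genes were). After the GC content and length correction, however, 0 of the 49 were lower and 1 was higher. The lysosomal precursor PSAP was at 663 TPM in siBACH1, 617 TPM in sip53 and 546 TPM in siControl (log2 0.36) and TFEB, a factor that activates lysosomal genes, was at 8.16 TPM in siBACH1, 14.5 TPM in sip53 and 13.2 TPM in siControl (log2 -0.56). Tissue factor, F3, which starts coagulation, was at 72.6 TPM in siBACH1, 46.4 TPM in sip53 and 59.04 TPM in siControl (log2 0.38), and its inhibitor TFPI was at 60.5 TPM in siBACH1, 78.7 TPM in sip53 and 92.9 TPM in siControl (log2 -0.53).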
